A study of Homo sapiens with 6 samples.

Results

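The genes described here are the mitochondrially encoded mRNAs and rRNAs together with the nuclear genes that copy, process and translate them. They were chosen by name, as 13 mitochondrial mRNAs, 2 mitochondrial rRNAs and 34 nuclear genes for mitochondrial DNA replication, transcription, RNA processing, RNA decay and translation factors. The 13 mRNAs are counted per gene, although MT-ND4L with MT-ND4 and MT-ATP8 with MT-ATP6 lie on shared mRNAs. All 49 symbols matched a gene among the 57820 rows of the count table, and all 49 passed the filter on low counts that left 17225 genes for testing. Gene expression had been measured by RNA-seq in HEK293, an established human embryonic kidney cell line, without any heat shock. Control cells received DMSO vehicle and treated cells 100 µM minocycline, a tetracycline antibiotic, each for 12 h, with 3 biological replicates per group. Both groups were cells of the same line, kept in serum-containing medium with penicillin and streptomycin, so the results apply to 1 line, 1 dose and 1 time point, and the controls were grown with streptomycin too.

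Human mitochondrial DNA is a small circle that is transcribed on both strands into long precursors, and most mRNAs and rRNAs are released from them when the intervening tRNAs are cut out. Nuclear genes supply the RNA polymerase and its factors, the proteins that stabilise, polyadenylate or degrade the transcripts, and the initiation, elongation and release factors of a ribosome that is related to that of bacteria. Tetracyclines bind the small subunit of bacterial ribosomes and are known to inhibit translation in mitochondria, so the comparison shows whether RNA levels of this system differed after treatment. Protein and translation were not measured in these libraries.

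The libraries held 17303180 to 17835756 counts. A level below is given in CPM, a gene's counts relative to the size of its library, scaled by TMM factors, which adjust for composition, and a log2 fold change is minocycline over control with its standard error (SE). Each was tested with edgeR's quasi-likelihood test, with p-values adjusted by the Benjamini-Hochberg method over all 17225 genes and a threshold of 0.05. HEK293 markers were detected in every library, with 48 to 93 counts of PAX2 and 9424 to 14969 of VIM, while the leukocyte markers PTPRC, CD3E and LYZ had at most 3. Of the fibroblast markers, COL1A1 had 927 to 1428 counts and LUM 30 to 59, while COL1A2 and DCN had at most 2. Control replicate 1 stood apart from the other controls. On the first principal component of all genes, with 52.9% of the variance, it lay at -34.9, beside minocycline replicate 2 at -32.3 and away from control replicates 2 and 3 at 31.1 and 47.1. In 37 of the 49 genes its level was nearer to the minocycline mean than to the other controls, against 77.2% of all genes tested. Whether the library itself stands apart or carries an exchanged label cannot be told apart from these files, and every control mean and fold change below includes it unless stated. Its part in the results was not tested, and values without it are given together after the mitochondrial genes.

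None of the 49 genes passed the test, against 0.0522% of all genes tested (9 genes, all higher), and the smallest adjusted p among them was 0.820. DESeq2, which called 0.29% of all genes, and limma-voom, which called 0.0639%, also called 0 of the 49. Without adjustment, 5 of the 49 had a p under 0.05, where 4.7% of all genes did, and all 5 were mitochondrial mRNAs: MT-ND4, MT-ND4L, MT-ND5, MT-ND6 and MT-ATP8. MT-ND4 and MT-ND4L lie on a shared mRNA and so are not independent. The fitted level was lower with minocycline for 35 of the 49, where 47.9% of all genes were lower, a split that was 27 lower and 22 higher when libraries were scaled by total counts alone. Median log2 fold changes were -0.21 for the 13 mRNAs, -0.16 for the mRNAs and rRNAs together and -0.05 for the 34 nuclear genes, beside 0.01 for all genes tested. The mRNA median was -0.12 with total count scaling, -0.09 with 1 surrogate variable, -0.34 without control replicate 1 and -0.07, with 8 lower and 5 higher, without control replicate 2. The median of mRNAs and rRNAs under the same 4 settings was -0.09, -0.08, -0.30 and -0.07, and it was -0.32 without minocycline replicate 3. The nuclear median was 0.03 with total count scaling and -0.07 without minocycline replicate 2. In 5 of the 49 the levels of the 3 minocycline and 3 control libraries did not overlap, where 9.31% of all genes did not. These were MT-CYB and MT-ATP8 on the higher side (5.74% of all genes) and MT-ATP6, TBRG4 and MTRF1L on the lower side (3.56% of all genes).

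**Figure D1:**
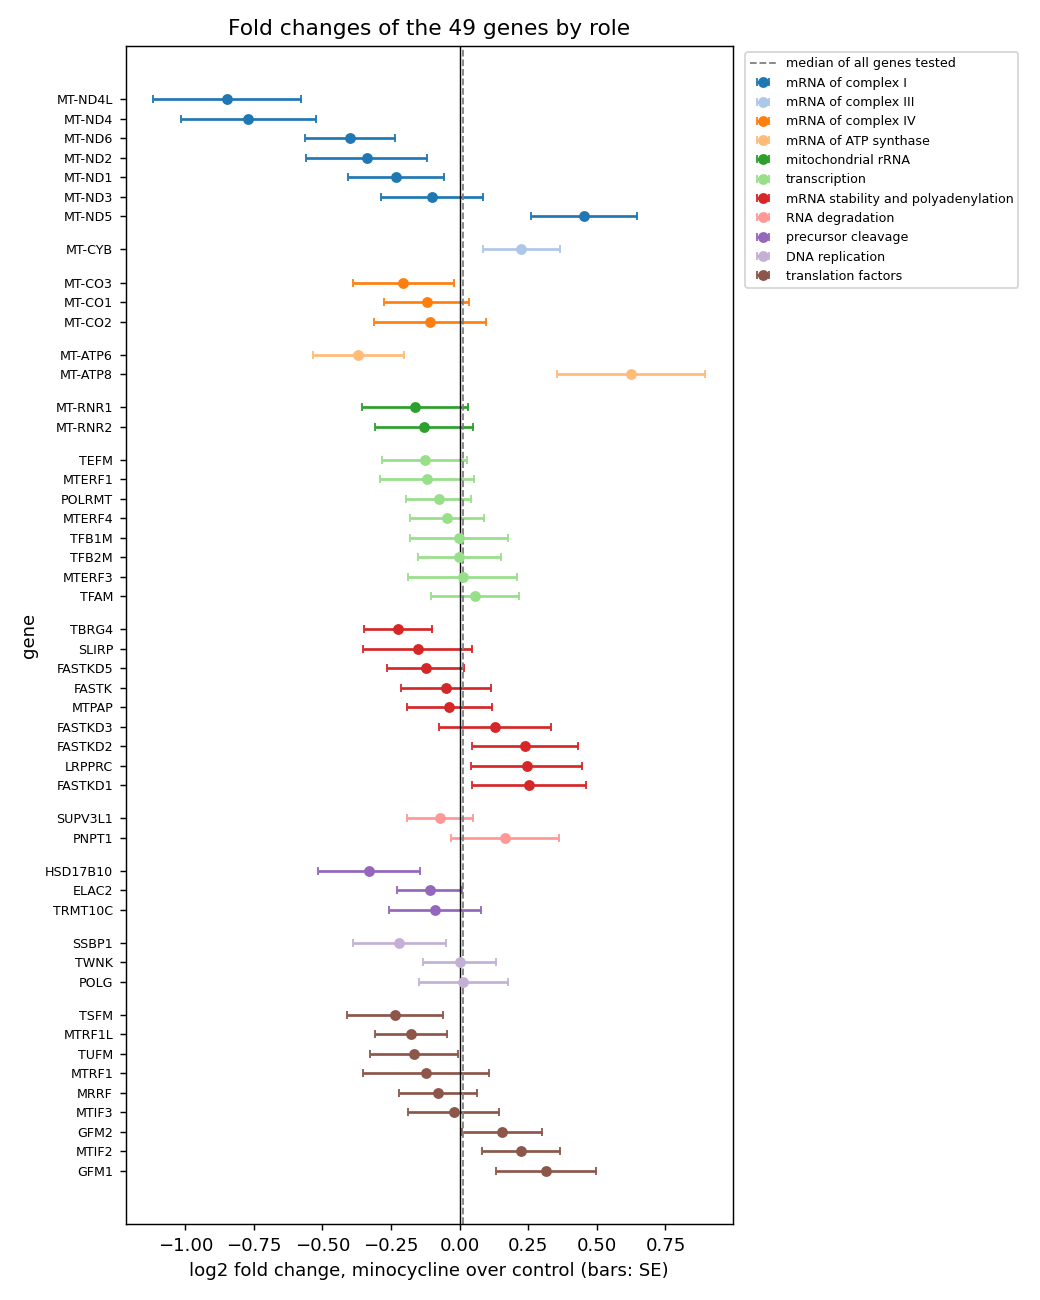
Log2 fold change of each of the 49 genes, minocycline over control (x axis), with bars of 1 SE, in blocks by role (y axis). The dashed line marks the median of all 17225 genes tested, 0.01. The widest spread is among the mitochondrial mRNAs, from MT-ND4L at -0.85 to MT-ATP8 at 0.63, while the nuclear genes lie between -0.33 and 0.31.

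The mitochondrial genes lie close together, and some reading frames share bases, which bears on how a count can be given to one gene or its neighbour. The 3 junctions below are shown because they are the runs shared between reading frames, and because MT-ND4L, MT-ATP8 and MT-ND4 had the 3 widest log2 fold changes of the 49 genes. Capitals mark bases that belong to both genes in the GENCODE 44 annotation mapped to GRCh37, on the plus strand of the mitochondrial chromosome of 16569 bases. MT-ND4L and MT-ND4 share 7 bases (chrM:10751-10775 is printed), MT-ATP8 and MT-ATP6 share 46 (chrM:8518-8581) and MT-ATP6 and MT-CO3 share 1 (chrM:9198-9216).
MT-ND4L and MT-ND4: cctactccaATGCTAAaactaatcg
MT-ATP8 and MT-ATP6: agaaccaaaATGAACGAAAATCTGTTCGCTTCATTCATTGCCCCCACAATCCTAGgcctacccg
MT-ATP6 and MT-CO3: caacacataAtgacccacc
The shared run makes up 22.2% of the 207 bases of MT-ATP8 but only 2.36% of MT-ND4L. How the counting treated a read over such a run, and whether the mitochondrial sequence of the authors' hg19 is the one used here, are not given in the sources used here.

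The largest levels per length belonged to MT-CO3 and MT-CO1, mRNAs of complex IV, the cytochrome c oxidase that passes electrons to oxygen. Expressed per kilobase of annotated exon (RPKM), the control means ± SD (n = 3) were 3319.8 ± 598 for MT-CO3, 2174 ± 139 for MT-CO1 and 885 ± 270.3 for MT-CO2. Next to MT-CO3 and MT-CO1 came the large rRNA MT-RNR2 at 1041 ± 103, then MT-ATP6 at 986 ± 200.4, MT-CYB at 941 ± 47.9, MT-ND4 at 916 ± 327, MT-CO2 and MT-ND1 at 822 ± 168. From MT-RNR2 to MT-ND1 each neighbour differed from the next by less than the sum of their SDs, so their order is not settled by 3 libraries. MT-ND2 at 432 ± 145 and MT-ND4L at 425 ± 169 were followed by the small rRNA MT-RNR1 at 279 ± 47.3, MT-ND6 at 183 ± 39.1, MT-ND5 at 140.3 ± 31.6, MT-ND3 at 89.5 ± 19.8 and MT-ATP8 at 21.5 ± 7.10. Gaps wider than the summed SDs separated MT-CO3 from MT-CO1, MT-CO1 from MT-RNR2, MT-ND1 from MT-ND2, MT-RNR1 from MT-ND6 and MT-ND3 from MT-ATP8. MT-ATP8 and MT-ATP6 lie on a shared mRNA, so their values cannot both give its level, and the place of MT-ATP8 is one of counts. Between MT-RNR2 and MT-ND1, where the order is not settled, places by mean RPKM moved in the minocycline libraries. MT-CYB stood at place 3, at 1100.3 ± 77.2, against place 5 in controls, and MT-CO2 at place 5 against place 7. MT-ND4 stood at place 8, at 537 ± 41.5, against place 6, and MT-ATP6 at place 6 against place 4. Such moves carry little weight in an unsettled order. The rRNAs are mature and abundant in mitochondria, but their level here depends on how RNA was selected for the libraries, which is not given in the sources used here.

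**Figure D2:**
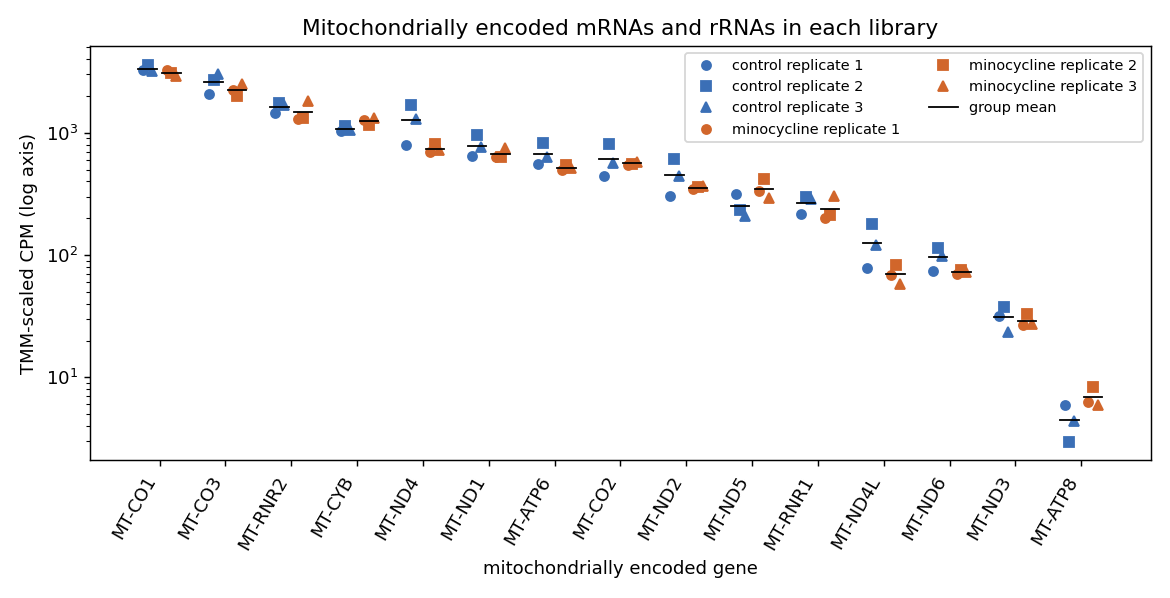
TMM-scaled CPM (y axis, log scale) of the 15 mitochondrially encoded genes (x axis, ordered by mean level) in each library. Each point is a library, its shape the replicate number, and each line a group mean (n = 3). For MT-ND4 control replicate 1 (799 CPM) lies beside the minocycline libraries, while control replicates 2 and 3 lie above them.

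Complex I, the NADH dehydrogenase that feeds electrons into the respiratory chain, has 7 mitochondrially encoded subunits. The fitted level was lower for 6 of these 7 genes, where 47.9% of all genes were lower. Their median log2 fold change was -0.34 over the 7, though none passed the test. MT-ND4L and MT-ND4 are both among the 6 and lie on a shared mRNA, so they are not independent. MT-ND4 (chrM:10760-12137, plus strand), which encodes a membrane subunit, had 799, 1700.4 and 1286 CPM in control replicates 1, 2 and 3 and 698, 805 and 717 with minocycline, a log2 fold change of -0.77 ± 0.25 (edgeR adjusted p = 0.820). Control replicates 2 and 3 were above every minocycline library, but control replicate 1 lay within their range. MT-ND4L (chrM:10470-10766), whose reading frame runs into that of MT-ND4 on the same mRNA, had 78.3, 178 and 122 CPM in controls and 69.2, 83.3 and 57.6 with minocycline, a log2 fold change of -0.85 ± 0.27. Both genes of this bicistronic mRNA thus had the same order of libraries in the controls, and their groups overlapped. The number of MT-ND4L counts per 100 MT-ND4 counts, a ratio that library scaling cannot move, was 9.80, 10.5 and 9.46 in controls and 9.92, 10.3 and 8.04 with minocycline. MT-ND4 made up 8.29, 13.2 and 11.3% of mitochondrial mRNA counts in controls and 6.96, 8.25 and 7.08% with minocycline, a share looked at after its levels were known, in which the highest treated library was just below control replicate 1.

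MT-ND6 (chrM:14149-14673, minus strand) is the single mRNA made from the opposite strand to the other 12. Its levels were 74.2, 115 and 99.1 CPM in controls and 70.3, 75.7 and 72.4 CPM with minocycline, a log2 fold change of -0.40 ± 0.16. Again control replicates 2 and 3 were higher and control replicate 1 lay among the treated libraries. As a share of mitochondrial mRNA counts MT-ND6 made up 0.770, 0.891 and 0.868% in controls and 0.701, 0.776 and 0.715% with minocycline, a difference that did not pass a two-sided exact permutation test over the libraries (p = 0.2, where 0.1 is the smallest p that 3 against 3 allows). Whether the counting used strand is not given, so RNA of the other strand across MT-ND6 may be included.

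MT-ND5 (chrM:12337-14148), for a large membrane subunit, was the exception among complex I mRNAs. Its levels were 319, 235 and 209 CPM in controls and 333, 419 and 291 with minocycline, a log2 fold change of 0.45 ± 0.19. Control replicate 1 exceeded minocycline replicate 3, so the groups overlapped, while the other controls were below all treated libraries. MT-ND1, at 641, 959 and 759 CPM against 631, 629.6 and 748 (-0.23 ± 0.17), and MT-ND2, at 303, 605 and 442 against 346, 358 and 364 (-0.34 ± 0.22), showed their highest value in control replicate 2. MT-ND3, the shortest complex I mRNA beside MT-ND4L, differed least, with 31.9, 37.3 and 23.7 CPM against 26.7, 32.8 and 27.1 and a log2 fold change of -0.10 ± 0.19.

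MT-CYB (chrM:14747-15887, plus strand) encodes cytochrome b, the only mitochondrially encoded subunit of complex III, which passes electrons to cytochrome c. Its levels were 1027, 1134 and 1062 CPM in controls and 1282, 1157 and 1327 CPM with minocycline, and every treated library was above every control. The distance was small, a log2 fold change of 0.22 ± 0.14, and with each replicate number taken alone it was 0.32, 0.03 and 0.32. Control replicate 1 did not lie with the treated libraries for this gene. The MT-CYB share of mitochondrial mRNA counts, looked at after its levels were known and so given without a test, was 10.7, 8.80 and 9.30% in controls and 12.8, 11.9 and 13.1% with minocycline.

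The log2 fold changes of the complex IV mRNAs ran from -0.21 to -0.11. MT-CO1, the catalytic subunit, had 3258, 3598 and 3200.2 CPM in controls and 3269, 3080.3 and 2901 with minocycline (-0.12 ± 0.16). MT-CO2, which binds cytochrome c, had 446, 808 and 562 CPM against 548, 555 and 580.4 (-0.11 ± 0.20). MT-CO3 had 2093, 2699 and 3016 CPM against 2250.2, 2006 and 2516 (-0.21 ± 0.19). In all 3 the groups overlapped, and the difference was at most about as large as its SE.

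ATP synthase makes ATP from the proton gradient, and its 2 mitochondrially encoded subunits lie on 1 mRNA whose frames overlap, as printed above. MT-ATP6 (chrM:8527-9207), which forms part of the proton channel, had 559, 823 and 632 CPM in controls and 494, 546 and 519 with minocycline, a log2 fold change of -0.37 ± 0.17 in which every treated library was below every control. MT-ATP8 (chrM:8366-8572), a short subunit of the stalk, had 5.92, 2.99 and 4.41 CPM in controls and 6.34, 8.32 and 5.94 with minocycline, a log2 fold change of 0.63 ± 0.27 in the other direction. Its raw counts were low, at 109, 50 and 73 in controls and 116, 153 and 104 with minocycline, and the gap between the highest control and the lowest treated library was narrow. Per 100 MT-ATP6 counts there were 1.06, 0.363 and 0.698 counts of MT-ATP8 in controls and 1.28, 1.52 and 1.14 with minocycline, a ratio formed after the levels were seen. With both genes on 1 mRNA, counts this unequal and fold changes in opposite directions cannot both describe the level of that mRNA. What set the ratio was not tested. Control replicate 1 was the nearest control to the treated libraries in both levels and in the ratio.

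The rRNAs form the core of the mitochondrial ribosome. MT-RNR1, the small subunit rRNA, had 215, 299 and 285 CPM in controls and 199.8, 212 and 303 with minocycline (-0.16 ± 0.19). MT-RNR2, the large subunit rRNA, had 1439.9, 1739.5 and 1690.5 CPM against 1298, 1326 and 1825 (-0.13 ± 0.18). In both, minocycline replicate 3 was higher than all other libraries and minocycline replicates 1 and 2 lay below every control.

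As a whole, the 13 mRNAs and 2 rRNAs made up 1.17, 1.44 and 1.24% of all counts in controls (1.28 ± 0.140, SD, n = 3) and 1.18, 1.17 and 1.24% with minocycline (1.20 ± 0.0377). A two-sided exact permutation test of the difference gave p = 0.5. The 95% Wilson interval of each library's share was at most 0.0112 percentage points wide, covering counting error only, so the spread between libraries was far above it. The ratio of rRNA to mRNA counts was 0.172, 0.158 and 0.173 in controls and 0.149, 0.158 and 0.210 with minocycline (exact permutation p = 1.0), with minocycline replicate 3 highest. In bulk RNA a lower level can come from fewer mitochondria or cells of a kind as well as from less RNA in each, and these cannot be told apart here.

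**Figure D3:**
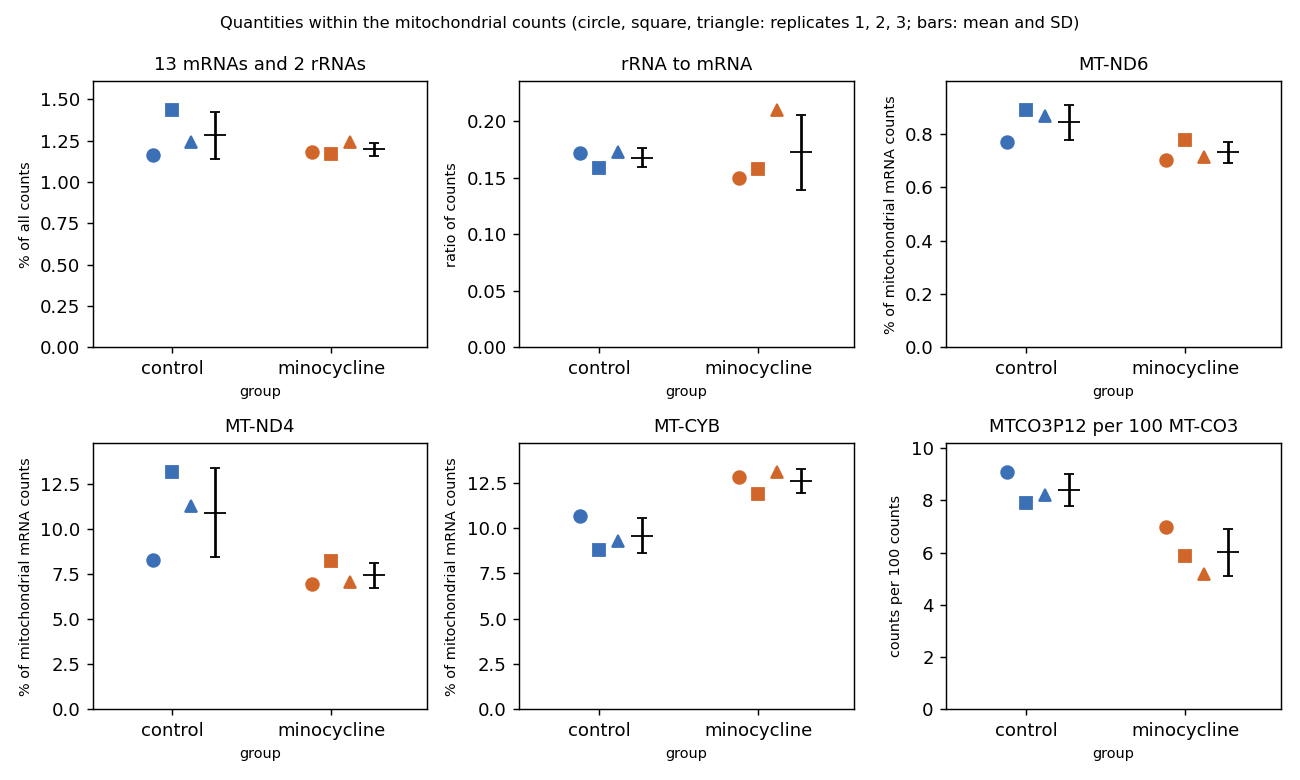
Quantities within the mitochondrial counts (y axes from 0, units on each panel) by group (x axis), with 1 point per library shaped by replicate number and the mean and SD of 3 libraries beside it. The shares of MT-ND4 and MT-CYB among mitochondrial mRNA counts and the MTCO3P12 counts per 100 MT-CO3 counts do not overlap between groups. They were picked after the values were seen, and the shares of all other mitochondrial mRNAs overlap. For MT-ND4 the highest treated library is at 8.25% and the lowest control at 8.29%. The total share, the ratio of rRNA to mRNA and the MT-ND6 share, which were planned, overlap.

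Without control replicate 1, 3154 of 17658 genes passed the test (17.9%), and so did 11 of the 49. MT-ND4 then had a log2 fold change of -1.01 ± 0.14 (edgeR adjusted p = 0.000779) and MT-ND4L of -1.10 ± 0.16 (adjusted p = 0.00114). MT-ND2, MT-ND6 and MT-ATP6 were also lower, at -0.56 ± 0.13, -0.56 ± 0.12 and -0.49 ± 0.13, while MT-ND5 and MT-ATP8 were higher, at 0.65 ± 0.15 and 0.89 ± 0.24. Among nuclear genes LRPPRC (0.48 ± 0.14), PNPT1 (0.42 ± 0.13) and GFM1 (0.54 ± 0.13) were higher and HSD17B10 was lower (-0.52 ± 0.12). The other mitochondrial genes did not pass, with values such as -0.36 ± 0.14 for MT-ND1, -0.34 ± 0.14 for MT-CO3, -0.30 ± 0.15 for MT-RNR1 and 0.19 ± 0.13 for MT-CYB. TBRG4 had -0.30 ± 0.11 and MTRF1L -0.08 ± 0.12. The fitted level was lower for 32 and higher for 17 of the 49, and lower for 20 and higher for 14 of the nuclear genes. The share of the 49 that passed should be read against the 17.9% of all genes, and 2 controls remain in that fit. Control replicate 1 is singled out because it lay with the treated libraries. Leaving it out therefore widens the distance between groups by the choice itself, so these p-values are no independent support for a difference. Within replicate numbers 1, 2 and 3 the log2 difference of MT-ND4 was -0.20, -1.08 and -0.84, and the median over the 13 mRNAs was 0.01, -0.54 and -0.14. With no filter on low counts, MT-ND4 (-0.79 ± 0.17, adjusted p = 0.00219) and MT-ND4L (-0.87 ± 0.17, adjusted p = 0.000195) passed with all 6 libraries, where 0.28% of 33543 genes did. In that fit the SEs of MT-ND4, MT-ND4L and MT-CYB were all 0.17, against 0.25, 0.27 and 0.14 with the filter. The SE there thus reflects each gene's own spread between libraries less, control replicate 1 included, and these p-values are no independent support either.

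The nuclear genes were less abundant per length than most of the mitochondrial mRNAs. Their control RPKM was highest for TUFM at 198 ± 38.5, HSD17B10 at 67.2 ± 16.4 and POLRMT at 41.4 ± 2.08, and lowest for FASTKD2 at 1.87 ± 0.385. The exon length used is the total over all annotated exons, which understates the level of genes with many annotated isoforms such as LRPPRC.

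For 6 of the 8 transcription genes the fitted level was lower, where 47.9% of all genes were lower. The 6 include TFB1M and TFB2M, whose log2 fold changes were under 0.01 in size. The median log2 fold change was -0.02, and all 8 overlapped between groups. POLRMT, the mitochondrial RNA polymerase, had 206, 201 and 222 CPM in controls and 208, 203 and 186 with minocycline (-0.08 ± 0.12). TFAM, which packages the DNA and opens the promoters, had 126, 97.9 and 85.8 CPM against 95.9, 112 and 114 (0.06 ± 0.16). TEFM, the elongation factor, had 28.1, 25.1 and 26.9 CPM against 21.0, 24.0 and 28.3 (-0.13 ± 0.16), and MTERF1, which binds a termination site behind the rRNA genes, had 12.4, 13.02 and 10.2 against 9.78, 11.7 and 11.3 (-0.12 ± 0.17). The remaining TFB1M, TFB2M, MTERF3 and MTERF4 had log2 fold changes of -0.0022, -0.00085, 0.01 and -0.05. The exons of TFB1M and MTERF4 overlap those of another gene over 38.7% and 51.0% of their length, so part of their counts may belong elsewhere.

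Genes for mRNA stability and polyadenylation numbered 9, of which 4 were higher and 5 lower (median -0.04). LRPPRC, which binds and stabilises mitochondrial mRNAs together with SLIRP, had 169, 114 and 108 CPM in controls and 129.6, 186 and 148 with minocycline (0.24 ± 0.20), with control replicate 1 inside the treated range. SLIRP itself had a log2 fold change of -0.15 ± 0.20. TBRG4, also called FASTKD4, is a member of the FASTK family of mitochondrial RNA-binding proteins. It had 129.6, 150.0 and 157 CPM against 127, 128 and 119 (-0.22 ± 0.12), and every treated library was below every control, though control replicate 1 was close to minocycline replicate 2. FASTKD2, of the same family, had 22.6, 15.7 and 16.4 CPM against 18.4, 25.3 and 20.9 (0.24 ± 0.19). FASTKD1 (0.25) and FASTKD3 (0.13) had higher and FASTK (-0.05), FASTKD5 (-0.12) and MTPAP (-0.04), the poly(A) polymerase, lower fitted levels.

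RNA decay was represented by PNPT1, the polynucleotide phosphorylase, and its partner helicase SUPV3L1. PNPT1 had 68.7, 46.5 and 40.2 CPM in controls and 52.7, 61.8 and 59.8 with minocycline (0.17 ± 0.20). SUPV3L1 had 52.9, 57.6 and 59.9 CPM against 54.4, 55.0 and 52.7 (-0.07 ± 0.12), a sign that turned under total count scaling. Neither pair of groups was separate, and for PNPT1 control replicate 1 was the highest of the 6 libraries.

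The 3 genes chosen for cutting tRNAs out of the precursors all had a lower fitted level, though none passed. Of all genes tested, 47.9% were lower. PRORP, also of this step but counted on a further list below, was slightly higher (0.08 ± 0.67). Its counts were low, at 18, 8 and 3 in controls and 13, 16 and 3 with minocycline. HSD17B10, a subunit of mitochondrial RNase P, had 137, 206 and 225 CPM in controls and 151, 136 and 166 with minocycline (-0.33 ± 0.19), and control replicate 1 lay at the level of the treated libraries. ELAC2, which cuts at the 3′ end of the tRNAs, had 202, 211 and 219.7 CPM against 201, 205 and 179.7 (-0.11 ± 0.12). TRMT10C, another subunit of RNase P, had a log2 fold change of -0.09 ± 0.17.

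The 3 genes for DNA replication gave a mixed picture. SSBP1, the single-stranded DNA-binding protein, had 98.9, 131 and 140.4 CPM in controls and 90.3, 105 and 122 with minocycline (-0.22 ± 0.17). POLG, the DNA polymerase, had 117, 89.7 and 101 CPM against 112, 115 and 83.6 (0.01 ± 0.16), with no difference beyond its SE and a sign that turned under RLE scaling. TWNK, the helicase, had nearly equal means of 82.6 ± 0.909 and 82.6 ± 10.6 CPM (SD, n = 3).

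Translation factors numbered 9, with 3 higher and 6 lower (median -0.08). TUFM, the elongation factor that brings tRNAs to the ribosome, had 346, 454 and 515 CPM in controls and 389.5, 378 and 404 with minocycline (-0.17 ± 0.16). GFM1, the translocating elongation factor, had 55.1, 36.3 and 36.3 CPM against 52.3, 57.4 and 49.1 (0.31 ± 0.18), where control replicates 2 and 3 were below all treated libraries and control replicate 1 among them. MTIF2, which places the initiator tRNA, had 60.3, 54.1 and 46.5 CPM against 57.0, 62.4 and 68.4 (0.22 ± 0.14). The ribosome recycling factors GFM2 and MRRF had log2 fold changes of 0.15 and -0.08, the initiation factor MTIF3 of -0.02, and the release factors MTRF1 and MTRF1L of -0.12 and -0.18. TSFM, which recharges TUFM, had -0.24. MTRF1L was lower in every treated library, but 37.8% of its exon length overlaps exons of another gene, as does 71.2% of that of TSFM.

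**Figure D4:**
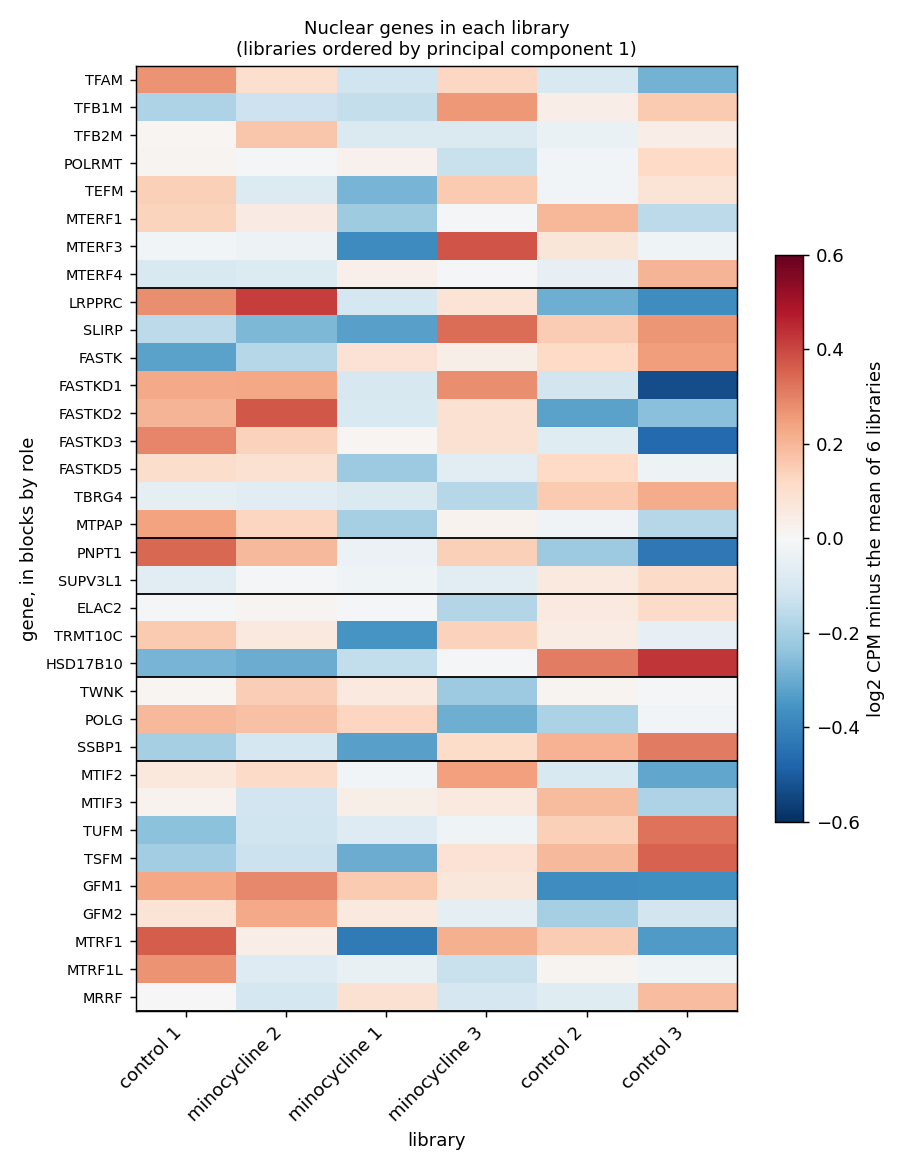
Log2 CPM of the 34 nuclear genes (y axis, in blocks by role) minus their mean over 6 libraries (colour), with libraries ordered by the first principal component of all genes (x axis). Control replicate 1 stands at the left beside minocycline replicate 2, and genes such as LRPPRC, PNPT1 and GFM1 are high there and low in control replicates 2 and 3 at the right, with HSD17B10 and TUFM the other way round.

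Other genes of the system were looked at from further lists. Of 22 mitochondrial tRNA genes 12 passed the filter on low counts, 8 with higher and 4 with lower fitted levels, and 0 passed the test. Short tRNAs are poorly captured by libraries of this kind. MT-TS2, a serine tRNA, had 8, 2 and 3 counts in controls and 15, 29 and 13 with minocycline, and MT-TR, the arginine tRNA, had 71, 13 and 13 against 56, 110 and 55. MT-TR lies directly before MT-ND4L, at chrM:10405-10469, and MT-TS2 behind MT-ND4 with MT-TH between them, at chrM:12207-12265. Both are printed as whole genes from GRCh37 on the plus strand, without capitals.
MT-TR: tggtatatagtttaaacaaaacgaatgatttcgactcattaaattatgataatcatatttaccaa
MT-TS2: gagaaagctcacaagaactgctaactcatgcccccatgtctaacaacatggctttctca
For MT-TS2 every treated library exceeded every control, at counts of 2 to 29, while for MT-TR control replicate 1 had more counts than minocycline replicates 1 and 3. MT-TP, the proline tRNA, went the other way, with every treated library below every control in CPM. It had 4.62, 5.31 and 4.11 CPM in controls and 3.50, 3.86 and 3.66 with minocycline (-0.35 ± 0.20). Of all genes tested, 5.74% were separate on the higher side and 3.56% on the lower side.

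Of 13 listed nuclear copies of mitochondrial genes, 2 passed the filter. The copy of MT-CO3, MTCO3P12, lies at chr1:569756-570302 on the plus strand. It had 3504, 3578 and 4092 counts in controls and 2872, 2172 and 2277 with minocycline, and every treated library was below every control. Over 547 bases it differs from MT-CO3 at 10 positions (98.2% identical), with 124 bases as the longest identical run, so a read can match both. A stretch of 120 bases holds 6 of the differences, in capitals, and is shown from MT-CO3 at chrM:9429-9548 and from the copy at chr1:569978-570097, both on the plus strand of GRCh37.
MT-CO3: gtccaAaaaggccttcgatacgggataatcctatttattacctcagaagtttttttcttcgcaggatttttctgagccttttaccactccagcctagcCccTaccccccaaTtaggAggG
MTCO3P12: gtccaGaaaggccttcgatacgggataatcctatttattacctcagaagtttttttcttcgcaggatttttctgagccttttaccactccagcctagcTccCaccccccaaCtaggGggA
Per 100 counts of MT-CO3 the copy had 9.10, 7.92 and 8.20 counts in controls and 6.97, 5.89 and 5.17 with minocycline, a ratio formed after its counts were seen and given without a test. How reads matching both were assigned is not given in the sources used here. MTCO1P12, a copy of MT-CO1, had a log2 fold change of -0.15 ± 0.18.

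Of 48 other genes for mitochondrial gene expression, PRORP among them, 22 were higher and 26 lower (median -0.03), and none passed the test. The smallest p-values were those of MPV17L2, which takes part in ribosome assembly, at 48.7, 60.8 and 66.9 CPM in controls and 46.5, 45.5 and 49.8 with minocycline (-0.32 ± 0.15), and of ERAL1, which binds the small subunit rRNA, at 128, 175 and 182 against 134, 129 and 143 (-0.26 ± 0.15). Of 8 regulators of mitochondrial biogenesis 3 were higher and 5 lower (median -0.04), and 0 passed. GABPA, a transcription factor of nuclear genes for mitochondrial proteins, had 69.2, 46.2 and 38.5 CPM against 52.1, 67.7 and 60.1 (0.22 ± 0.21), and NRF1, another, had 32.3, 34.2 and 34.2 against 33.1, 30.9 and 30.1 (-0.10 ± 0.13). Without control replicate 1, where 17.9% of all genes passed, 6 of the 48 passed (POLG2, ERAL1, MTG1, MPV17L2, TACO1 and GUF1), GABPA did among the 8 regulators, and 4 of the tRNA genes did (MT-TG, MT-TR, MT-TH and MT-TS2).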

How the data were processed

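Total RNA of 6 HEK293 libraries was sequenced as paired-end reads on an Illumina instrument after library preparation with a NEBNext Ultra II kit, per the labels' protocols. The authors deposited 1 table of whole-number counts per gene without normalization, made on hg19 per the submitters' processing notes. RNA selection, strandedness, aligner, counting program and annotation are not given in the sources used here. Groups came from the sample titles. Symbols were matched for 55538 of 57820 Ensembl identifiers. Positions, exon lengths and sequences came from GENCODE 44 mapped to GRCh37 and the GRCh37 genome.

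Genes were filtered with filterByExpr, scaled with TMM and tested with edgeR 4.0.16 (glmQLFit and glmQLFTest, R 4.3.3) with treatment as the single term, after the steps had been tested on simulated data. Shares over libraries were compared by exact permutation tests in SciPy 1.17.1. Pairs of libraries in a group differed by 5.80 to 63.6 chi-square per degree of freedom, more than counting noise, so none was the same library sequenced again. This cannot tell separate cultures from separate preparations of the same RNA.

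The genes and lists were chosen with earlier results of these data known. All 15 mitochondrial genes are named, and of each nuclear role the 2 genes with the smallest unadjusted p in addition to POLRMT, TFAM, LRPPRC and TUFM, with the others given as ranges or single values. The labels give the replicate number also as the batch, which pairs the libraries. Deviations from the group means correlated across genes by -0.05, -0.29 and 0.30 in same-numbered pairs. The highest correlation, 0.50, was between control replicate 1 and minocycline replicate 2, so the pairing rests on the label alone. Alternatives were RLE, upper-quartile, total count and nuclear scaling, DESeq2 1.42.0, limma-voom (limma 3.58.1), no filter, at least 10 counts in every library, the replicate block, 1 surrogate variable (sva 3.50.0), each library left out and, added after seeing the data, the newer quasi-likelihood method of edgeR.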

Additional observations from a re-analysis of the deposited data

How the results depend on the processing

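The count of all genes past the threshold, 9, became 50 with DESeq2, 94 with no filter on low counts, 91 with 1 surrogate variable and 1 to 3154 when single libraries were left out, the highest without control replicate 1. It was 4 without control replicate 2 and 1 without minocycline replicate 1 or 3. Of the 49 genes, 0 became 2 with no filter and 0 to 11 when single libraries were left out, again the highest without control replicate 1, and 0 under every other alternative run. With the replicate block 13 genes passed, 12 higher and 1 lower, against 9 without it, and 0 of the 49 passed. The paired difference in the mitochondrial share was -0.0852 percentage points (exact sign-flip p = 0.75, where 0.25 is the smallest that 3 pairs allow). The difference in the ratio of rRNA to mRNA ran from -0.0141 to 0.0162 when single libraries were left out. Of 39 named genes 31 kept their direction in all alternatives run, and of 662 pairs of gene and alternative 622 kept direction and call, 23 came to pass the threshold and 17 reversed. Reversed log2 fold changes were, with 1 surrogate variable, 0.078 for MT-CO2, 0.028 for MT-RNR1, -0.013 for PNPT1, -0.12 for POLG, -0.068 for TFAM and 0.018 for TUFM. SUPV3L1 gave 0.0033 with total count scaling, and POLG gave -0.0040 with RLE scaling, -0.0040 with DESeq2 and -0.0037 with no filter. When single libraries were left out, MT-ND3 ran from -0.27 to 0.054, MT-CO2 from -0.29 to 0.15, POLG from -0.075 to 0.14 and TFAM from -0.070 to 0.22. The cause was not tested, beyond fewer libraries where one was left out. Precision was limited by the 3 libraries per group. Counts of MT-ATP8, MT-TR and MT-TS2 were also low, and the part of depth in their spread was not tested.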

Other observations

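The tRNA genes MT-TG, MT-TR, MT-TH, MT-TS2 and MT-TL2 stand between MT-CO3 and MT-ND5, the stretch that holds MT-ND3, MT-ND4L and MT-ND4. They were grouped after their values were seen, so the sum is given without a test. Together they had 219, 62 and 46 counts in controls and 168, 324 and 174 with minocycline. Control replicates 2 and 3 had the fewest and control replicate 1 had more than minocycline replicates 1 and 3. All 22 tRNA genes together had 661, 593 and 392 counts in controls and 552, 817 and 583 with minocycline, with overlapping groups. Leaving out control replicate 1, the log2 fold change of MT-TR was 2.37 ± 0.39 (edgeR adjusted p = 0.00207). With all libraries it was 1.15 ± 0.57 (adjusted p = 0.820), and with all libraries and no filter on low counts 1.13 ± 0.30 (adjusted p = 0.0491). Over 17 alternatives the adjusted p of MT-TR ran from 0.00207 to 0.99997, and 2 passed. The fits without control replicate 1 and with no filter carry the limits given for them above.

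MTCO3P12 did not pass the test with all libraries (-0.69 ± 0.15, edgeR adjusted p = 0.465) or with the replicate block (adjusted p = 0.527). It passed the threshold in 4 of 17 alternatives, with DESeq2, with no filter on low counts, with 1 surrogate variable and without control replicate 1, at log2 fold changes of -0.81 to -0.57 over all alternatives. Its adjusted p over these ran from 0.00240 to 0.99997. The limits given above for the fits with no filter and without control replicate 1 hold here too. Within replicate numbers 1, 2 and 3 its log2 difference was -0.28, -0.86 and -0.93.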
